A study of Homo sapiens with 6 samples.

Results

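Complement is a cascade of plasma proteases that marks surfaces for removal and can end in pores in a membrane. In the classical pathway C1q binds a target, the protease C1r activates C1s, and C1s cleaves C4 and C2 to build an enzyme that splits C3. Factor B, encoded by CFB, has the matching place in the alternative pathway, and C1 inhibitor, encoded by SERPING1, binds and inactivates C1r and C1s. Cells are shielded by the membrane proteins CD46 and CD55, which act at the C3-splitting enzymes, and CD59, which blocks the pore. Most complement protein in plasma comes from the liver, and fibroblasts and macrophages also make C1r, C1s and C1 inhibitor.

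The transcripts described here are 9 genes of this system, taken by symbol from a table of 17187 genes: the 6 fluid-phase genes C1R, C1S, C1RL, C2, CFB and SERPING1 and the 3 membrane regulators CD46, CD55 and CD59. All 9 had a row, and all 9 were among the 15546 genes kept for testing. They were measured in HT-1080, an established human fibrosarcoma line labelled wild type, in 3 libraries after 8 h with recombinant interferon gamma (IFNg) at a dose of 10 ng/ml and in 3 libraries with PBS in its place (control). The series concerns CD8+ T cells, which secrete IFNg, and ferroptosis of tumour cells. Total RNA was sequenced after removal of ribosomal RNA. Nothing in the labels tells whether libraries of 1 group were separate cultures, so p-values measure only the spread between these libraries, which may be technical. The members were chosen with results of this same contrast known, so their differences are given as a description, without p-values.

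Values are normalised read counts, that is, reads assigned to a gene divided by 1 size factor per library, and they are not divided by gene length. Libraries held 59556948 to 83501954 assigned reads, and 1 read was worth 0.835 to 1.16 units, so a value near 1 is about 1 read. Libraries numbered 3 stood apart within both groups. Chi-square per degree of freedom against the other libraries of the group was 57.6 and 61.9 for IFNg 3 and 93.0 and 115 for control 3, against 15.8 between IFNg 1 and 2 and 40.8 between control 1 and 2. IFNg was active in these cells: all 8 genes of a response list passed, with IRF1, a transcription factor gene induced by IFNg, at 28355 ± 2187 in IFNg and 624 ± 324 in control (mean ± SD, n = 3 each; log2 difference 5.62 ± 0.26 SE, limma adjusted p = 3.70e-08). Mesenchymal markers were abundant (8 of 8 listed, summed level 708290 to 741798 in IFNg and 771643 to 794002 in control), although S100A4 was low at 19.5 to 45.2 in IFNg and 50.6 to 83.5 in control. Hepatocyte markers were near the floor (3 of 6 listed had a row, sum 82.2 to 120 in IFNg and 84.4 to 112 in control). Leukocyte and macrophage markers had a row for 6 of 9, with sums of 8988 to 14831 in IFNg and 10213 to 15985 in control, nearly all from the lysosomal gene CD68. PTPRC, the pan-leukocyte marker, lay at 0 to 44.6 in IFNg and 0 to 10.7 in control. Endothelial markers summed to 42.9 to 99.2 in IFNg and 66.2 to 97.7 in control, and epithelial ones, mainly KRT8 and KRT18, to 29077 to 34097 in IFNg and 23328 to 31872 in control.

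The stretch of DNA before a gene's start is where factors that carry the IFNg signal, IRF1 among them, are known to bind. For the members with an entry, the 250 bases before each start that had an entry were read from RefSeq (GRCh38.p14), and 7 of the 9 members had at least 1. The entries of C2 did not cover all of its starts. C1S and SERPING1 had no entry. Each window was searched on both strands for the gamma-activated site TTCNNNGAA (GAS) and the interferon-stimulated response element (ISRE), written as GAAA, any 2 bases and GAAA again. Of 35116 such windows of all genes, 6.57% held the GAS letters and 3.02% the ISRE letters. A member had up to 4 windows, so these shares per window are not rates per gene. The windows of 3 fluid-phase members and of 1 membrane regulator are shown, each 5′ to 3′ with motif matches in capitals. They set genes with a higher level in IFNg beside 1 whose groups overlapped. These are also the members with a match before at least 1 start, so they do not stand for all members. They are C1R (chr12:7092446-7092695, minus strand, the outermost start), C1RL (chr12:7109215-7109464, minus), CFB (chr6:31945845-31946094, plus) and CD59 (chr11:33736480-33736729, minus, the outermost start).
C1R: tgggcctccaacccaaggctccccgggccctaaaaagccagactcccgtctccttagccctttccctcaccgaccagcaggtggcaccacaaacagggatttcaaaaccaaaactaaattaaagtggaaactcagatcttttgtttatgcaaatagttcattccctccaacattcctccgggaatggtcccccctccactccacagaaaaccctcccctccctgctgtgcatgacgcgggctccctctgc
C1RL: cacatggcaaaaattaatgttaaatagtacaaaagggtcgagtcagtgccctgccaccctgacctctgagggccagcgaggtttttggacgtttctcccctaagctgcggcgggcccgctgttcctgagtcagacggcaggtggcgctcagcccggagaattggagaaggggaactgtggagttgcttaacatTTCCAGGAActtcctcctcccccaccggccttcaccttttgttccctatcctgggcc
CFB: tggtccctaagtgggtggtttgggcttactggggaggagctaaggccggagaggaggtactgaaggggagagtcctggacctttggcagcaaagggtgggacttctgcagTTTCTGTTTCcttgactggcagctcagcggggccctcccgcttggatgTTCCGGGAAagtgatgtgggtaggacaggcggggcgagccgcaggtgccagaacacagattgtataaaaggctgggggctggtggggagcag
CD59: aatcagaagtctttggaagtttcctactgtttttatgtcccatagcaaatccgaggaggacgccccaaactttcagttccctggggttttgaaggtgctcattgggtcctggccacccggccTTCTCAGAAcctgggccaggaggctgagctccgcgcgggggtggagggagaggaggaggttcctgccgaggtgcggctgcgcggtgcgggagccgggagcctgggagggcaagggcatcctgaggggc

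In these windows CFB held both motifs without overlap, the GAS match TTCCGGGAA starting 92 bases before the gene start and the ISRE match TTTCTGTTTC, on the opposite strand, starting 140 bases before it. C1RL held the GAS match TTCCAGGAA, 57 bases before its start. C1R held neither before its outermost start, and TTCCTGGAA 86 bases before its inner start. CD59 held TTCTCAGAA 128 bases before its outermost start, and the same site lies 184 bases before its next start. Neither motif was found before its remaining starts. Neither motif was found in the windows of CD46 or CD55, nor in those of C2, which leave out some of its starts. A match describes the letters only, and no match says only that these letters are not in this window.

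The C1 proteases stood far higher in IFNg. C1R, the protease that activates C1s, had 2321, 2392 and 2853 normalised reads in IFNg 1, 2 and 3, against 83.6, 102 and 94.4 in control 1, 2 and 3. The groups did not overlap, and both were tight. Its mean was 2522 ± 289 in IFNg and 93.3 ± 9.22 in control (SD, n = 3 each), a 27.0-fold ratio of means and a log2 difference of 4.74 ± 0.20 (SE of the limma fit). C1S, the protease that cleaves C4 and C2, had 1886, 1555 and 2455 in IFNg, against 54.6, 45.1 and 138 in control. Its groups did not overlap either, but library 3 was the highest in both. The mean was 1965 ± 455 in IFNg and 79.3 ± 51.2 in control, a 24.8-fold ratio (log2 difference 4.77 ± 0.37). That ratio was 39.4 without control 3 and 34.5 without both libraries numbered 3.

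The proteins C1r and C1s circulate in a complex that holds equal numbers of each. The ratio of the reads of their genes can be taken within each library. This ratio concerns RNA, not protein, and is not corrected for exon length (2790 bases for C1R, 3668 for C1S). C1R over C1S was 1.23, 1.54 and 1.16 in IFNg, against 1.53, 2.26 and 0.683 in control. The IFNg values lay inside the range of the controls, where control 3 had the lowest ratio and control 2 the highest.

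C1RL encodes a C1r-like protease with no settled place in the cascade. In control level and in size of difference it was unlike its neighbours C1R and C1S. It had 2583, 2990.1 and 2107 normalised reads in IFNg, against 1505, 1639 and 1629 in control. It was therefore well read in both groups, and every IFNg library lay above every control library, with IFNg 3 closest to the controls. The mean was 2560.0 ± 442 in IFNg and 1591 ± 74.8 in control, a 1.61-fold ratio (log2 difference 0.67 ± 0.14). C1RL-AS1, a noncoding gene whose span overlaps that of C1RL in RefSeq, had 2112, 1903 and 2456 in IFNg, against 1307, 1249 and 1356 in control. Its 1.65-fold ratio of means was close to the ratio of C1RL. Whether strand was used in counting is not given in the sources used here, so reads of C1RL and C1RL-AS1 cannot be told apart.

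C2 and CFB, which encode the serine proteases of the classical and alternative C3-splitting enzymes, were low in control. C2 had 405, 427 and 427 normalised reads in IFNg, against 2.14, 25.1 and 37.0 in control. The IFNg libraries were close together, whereas control 1 held far less than the other controls. The mean was 419.7 ± 12.7 in IFNg and 21.4 ± 17.7 in control, a 19.6-fold ratio (log2 difference 4.85 ± 0.76). That ratio was 13.5 without control 1 and 30.9 without control 3. In RefSeq the span of C2 also covers ZBTB12, at 1110 in IFNg and 1101 in control. CFB had 83.6, 40.3 and 78.8 in IFNg, against 5.36, 15.03 and 0 in control. The groups did not overlap, yet all 3 IFNg libraries together held only 197 reads and the controls 23. The mean was 67.6 ± 23.7 in IFNg and 6.80 ± 7.62 in control, a 9.94-fold ratio (log2 difference 3.81 ± 0.96). This ratio depended on control 2, without which it was 25.2, and on libraries numbered 3, without both of which it was 6.08.

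SERPING1, the inhibitor of C1r and C1s, was also low. It had 37.2, 85.8 and 97.3 normalised reads in IFNg, against 8.57, 0 and 0 in control. All control reads, 8 in number, came from control 1, and the IFNg libraries held 207. The mean was 73.4 ± 31.9 in IFNg and 2.86 ± 4.95 in control, a 25.7-fold ratio (log2 difference 5.02 ± 0.99). Without control 1 the ratio was at least 54.1-fold, set against 3 reads over the other controls, and without both libraries numbered 3 it was 14.3-fold. These floors cover counting error only. In bulk samples, fewer cells that express a gene and less RNA per cell cannot be told apart.

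**Figure D1:**
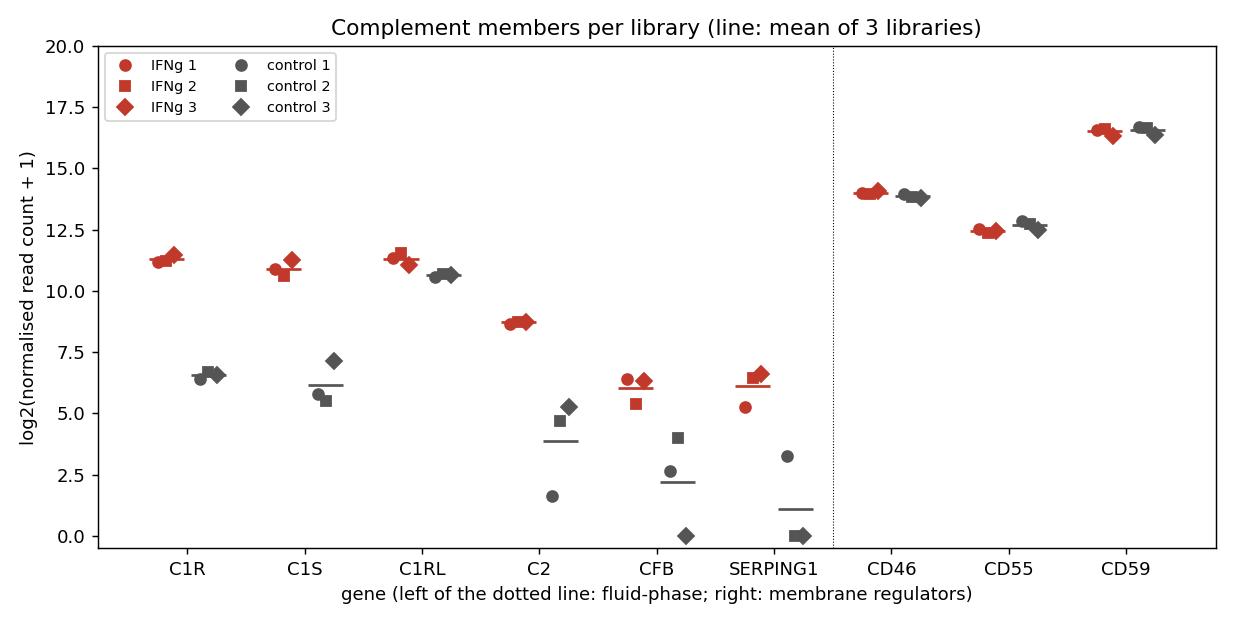
Log2 of the normalised read count plus 1 (y axis) of the 9 members (x axis) in 3 IFNg (red, left) and 3 control libraries (grey, right), with a line at each mean. All IFNg points lie above all control points for C1R, C1S, C1RL, C2, CFB and SERPING1 and, by a narrow margin, for CD46, whereas CD55 and CD59 overlap; 2 of the control points of SERPING1 and 1 of CFB lie at 0.

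The membrane regulators were abundant in both groups and differed little. CD46, a cofactor for the cleavage of C3b and C4b, had 16152, 16112 and 17271 normalised reads in IFNg, against 15997, 14618.5 and 14111 in control. The groups did not overlap, but the lowest IFNg and the highest control library almost touched. The ratio of means was 1.11 (log2 difference 0.15 ± 0.09). CD55, which dissociates the C3-splitting enzymes, had 5906, 5324 and 5651 in IFNg, against 7344, 6805 and 5806 in control. Only control 3 lay within the IFNg range. The ratio was 0.846 (log2 difference -0.24 ± 0.11), or 0.794 without both libraries numbered 3. CD59, which stops assembly of the membrane pore, had 97401, 101014 and 83106 in IFNg, against 107232, 101748 and 83538 in control. Library 3 was the lowest in both groups, and the groups overlapped. Its ratio was 0.962 (log2 difference -0.05 ± 0.12).

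Counted over the list, limma called 6 of the 9 members higher, all fluid-phase, where 3.27% of all genes tested were called higher. It called 0 lower, where 1.05% of all genes were. The count of members called was 3 without IFNg 2, 4 to 6 without any other single library and 2 without the intensity trend. The members were picked from this contrast, and nothing is read from that count. For the 3 membrane regulators limma called 0, with 1 at an unadjusted p under 0.05, and edgeR and DESeq2 each called 0. CD55 was called lower by limma without both libraries numbered 3. In 7 of the 9 members all IFNg libraries lay above all controls, against 10.7% of all genes. CFB and SERPING1 were not called by edgeR on the recovered reads, which called 4 of the 9. The median log2 difference was 4.75 over the 6 fluid-phase members, -0.05 over the 3 membrane regulators and -0.01 over all genes tested, so the fluid-phase median stood 4.81 above that of the membrane regulators. Among 15546 genes ordered by log2 difference from the highest, SERPING1 ranked 36, C2 39, C1S 43, C1R 44, CFB 74, C1RL 1403, CD46 4412, CD59 8754 and CD55 12097. The order among SERPING1, C2, C1S and C1R is not resolved by their SEs and depends on the pseudocount: with a pseudocount of 5 the log2 difference was 4.68 for both C1R and C1S, 4.35 for C2 and 3.39 for SERPING1.

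Levels of different genes were compared per kilobase of exon, using the union of protein-coding exons in GENCODE v29 (2490 bases for SERPING1 to 8214 for CD59). Per kilobase, CD59 was the highest member at 11424 ± 1153 normalised reads in IFNg and 11871 ± 1510 in control. CD46 followed with 4898 ± 195 in IFNg and 4423 ± 289 in control, then CD55 with 1413 ± 73.3 in IFNg and 1670.0 ± 196 in control. C1R came next in IFNg at 904 ± 104, above C1RL (657 ± 113) in all libraries. C1RL and C1S (536 ± 124) were not separated beyond their spread in IFNg. C2 lay far lower at 107 ± 3.25, and SERPING1 (29.5 ± 12.8) and CFB (23.6 ± 8.29) were not separated. In control the order of the fluid-phase genes was different, with C1RL at 408 ± 19.2 far above C1R (33.4 ± 3.30) and C1S (21.6 ± 14.0), which overlapped. C2 (5.47 ± 4.53), CFB (2.37 ± 2.66) and SERPING1 (1.15 ± 1.99) overlapped at the bottom.

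The make-up of the fluid-phase transcripts thus differed between the groups. Summed per kilobase, the 6 genes reached 2156, 2206 and 2408 normalised reads in IFNg, against 437, 481 and 499 in control. C1R and C1S together made up 62.4%, 58.1% and 70.2% of that sum in IFNg, against 10.3%, 10.1% and 14.3% in control. C1RL made up 30.7%, 34.8% and 22.4% in IFNg and 88.4%, 87.4% and 83.8% in control. The 3 membrane regulators summed to 18132, 18414 and 16660 in IFNg, against 19644, 18432 and 15814 in control, with overlapping groups. Fluid-phase transcripts therefore equalled 11.9%, 11.98% and 14.5% of the membrane regulator sum in IFNg, against 2.22%, 2.61% and 3.16% in control. In IFNg the transcripts of the proteases far exceeded that of their inhibitor, since C1R plus C1S was 90.2, 37.2 and 43.3 times SERPING1 per kilobase. SERPING1 held only 207 reads over the IFNg libraries, which limits the precision of this ratio. In control this ratio could be formed in control 1 alone, at 13.03.

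**Figure D2:**
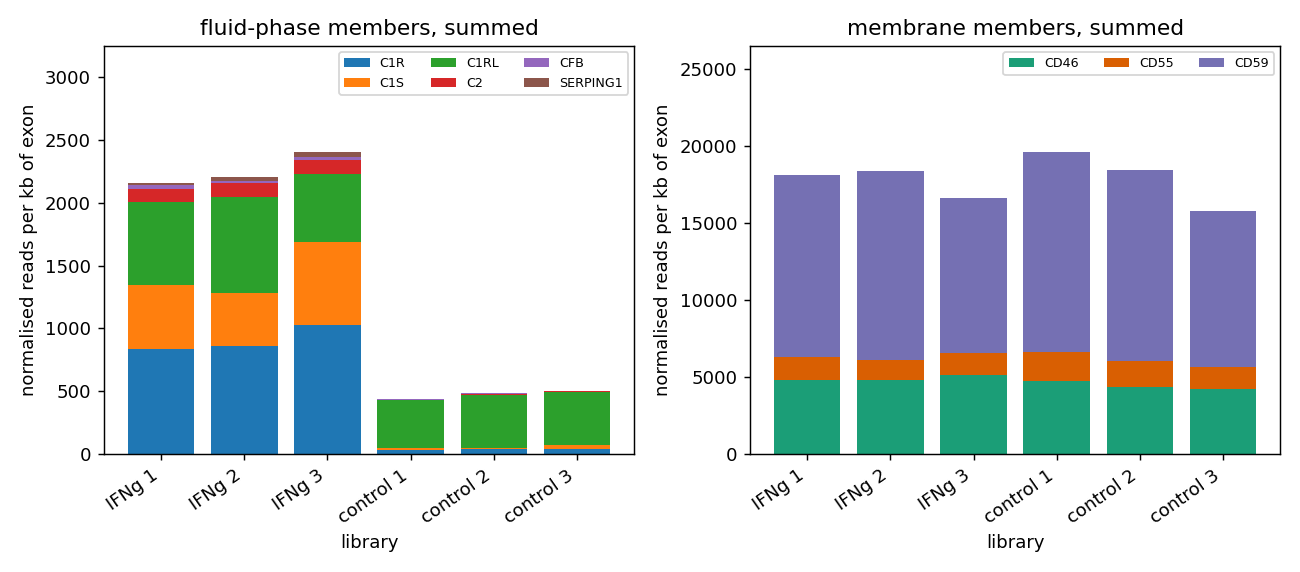
Normalised reads per kilobase of exon (y axes, from 0, on different scales) summed over the 6 fluid-phase members (left panel) and the 3 membrane regulators (right panel) in each IFNg and control library (x axis). The fluid-phase sum is 2156 to 2408 in IFNg and 437 to 499 in control, where nearly all of it is C1RL, while the membrane sums of the groups overlap and are mostly CD59.

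Complement genes outside the 9 were examined to see how far the rest of the system moved. Of 52 listed genes 26 had a row and 22 were tested, of which 2 rose and 0 fell, 9.09% against 4.32% called among all genes. The median log2 difference of the 22 was -0.05, against -0.01 over all genes. 1 of those that rose was C3AR1, the receptor for the C3a fragment, which had 338, 408 and 519 in IFNg, against 146, 178 and 233 in control. The log2 difference was 1.19 ± 0.28 (limma adjusted p = 0.0344). This call was lost without control 1, control 2 or any IFNg library (adjusted p of 0.0664 to 0.138) and without the trend (0.1103).

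The other soluble genes with the highest levels did not pass. Clusterin, encoded by CLU and an inhibitor of the terminal complex, was at 2092, 2019 and 2046 in IFNg, against 2090.0, 2381 and 2393 in control (log2 difference -0.15 ± 0.12, limma adjusted p = 0.601). C5, whose product starts the terminal complex, was at 170.0, 193 and 136 in IFNg, against 155, 201 and 140.2 in control (0.01 ± 0.31, adjusted p = 0.995). SUSD4 differed by -0.15 ± 0.55 (0.943) and the lectin gene COLEC11 by 0.94 ± 1.24 (0.806). C3, the central component, had 5.57, 8.27 and 104 in IFNg, against 1.07, 13.4 and 3.89 in control, so that only IFNg 3 stood apart (1.82 ± 1.17, limma adjusted p = 0.522). C1QA, C1QB, C1QC, C4A and C4B were listed but had no row under these symbols, so they were not tested. Among receptors and membrane genes, CALR and C1QBP, which encode C1q-binding proteins, differed by -0.02 ± 0.11 (adjusted p = 0.968) and 0.04 ± 0.09 (0.902), CSMD1 by -0.26 ± 0.15 (0.459), and the integrin subunit genes ITGB2 and ITGAX by 0.25 ± 0.30 (0.779) and -0.73 ± 0.58 (0.628).

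**Figure D3:**
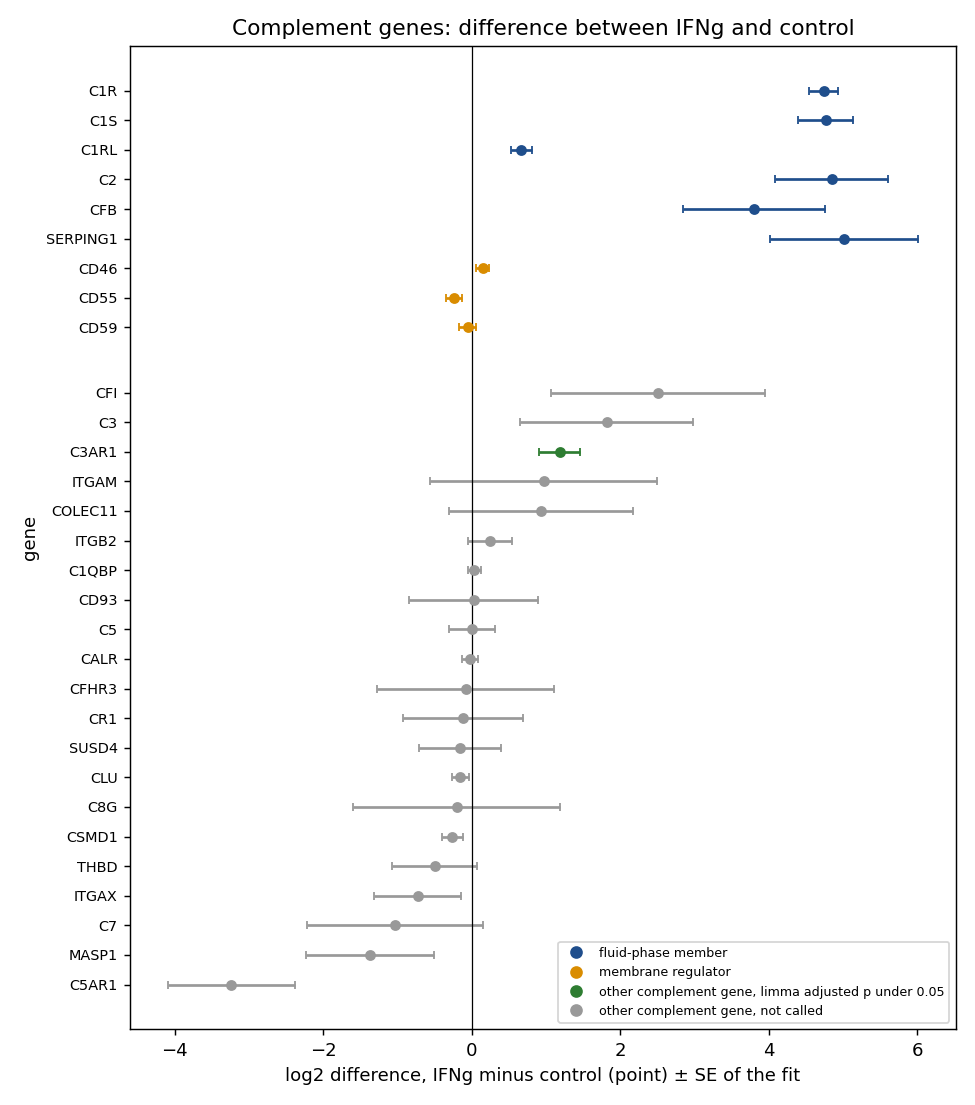
Log2 difference, IFNg minus control, with the SE of the limma fit (x axis) for the 9 members and 21 of the 22 tested other complement genes (y axis). Blue points are fluid-phase members, orange points membrane regulators, the green point another gene past an adjusted p of 0.05 and grey points other genes that did not pass; 5 of the 6 fluid-phase members lie between 3.81 and 5.02, the membrane regulators within 0.24 of 0, and C3AR1 is the green point.

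CD55 and CD59 are held in the membrane by a glycosylphosphatidylinositol (GPI) anchor, while CD46 spans it. Of 28 tested GPI anchor synthesis genes limma called 0, with 3 at an unadjusted p under 0.05, and edgeR and DESeq2 each called 0. Among all 15546 genes tested, 4.32% were called and 2373 had an unadjusted p under 0.05. The median log2 difference of the anchor genes was -0.06, with a range of -0.50 to 0.42. PIGA, part of the enzyme of the first step of synthesis, was at 1369.5, 1099 and 1217 in IFNg, against 994, 757 and 1026 in control (0.42 ± 0.17, limma adjusted p = 0.256). PIGT, of the complex that attaches the anchor, was at 7629.8, 7556 and 5818 in IFNg, against 8803, 9066 and 7501 in control (-0.28 ± 0.12, limma adjusted p = 0.301). GPAA1 and PIGS, of the same complex, differed by -0.11 ± 0.14 (0.802) and -0.12 ± 0.10 (0.664), MPDU1 by 0.05 ± 0.10 (0.872) and PIGO by -0.22 ± 0.12 (0.4225).

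The members lie in clusters, and their neighbours were tested in the same fit. C1S, C1R and C1RL are side by side on chromosome 12, C2 and CFB on chromosome 6, and SERPING1 on chromosome 11. Of 28 tested genes among the 3 nearest on each side of every member, 2 rose and 0 fell, 7.14% against 4.32% called among all genes. In 5 of the 28 all IFNg libraries lay above all controls, against 10.7% of all genes. An unadjusted p under 0.05 in limma was reached by 7 of the 28, against 2373 of all 15546 genes. With 2 calls, whether the neighbours differ from all genes is not settled. They were C1RL-AS1 (log2 difference 0.72 ± 0.13, limma adjusted p = 0.00845, lost without control 2 at 0.0511 and without the trend at 0.0698) and UBE2L6, which encodes the conjugating enzyme of the modifier ISG15. Since reads of C1RL-AS1 and of the member C1RL cannot be told apart, the call of C1RL-AS1 cannot be counted separately from that of C1RL. UBE2L6, next to SERPING1, had 17989, 16398 and 16317 in IFNg, against 1956, 2246 and 1539 in control (3.16 ± 0.13, limma adjusted p = 1.57e-08). Around C1S and C1R, LPCAT3 on the outer side of C1S differed by -0.03 ± 0.16 (adjusted p = 0.970) and CLSTN3, beyond C1RL, by 0.46 ± 0.12 (0.0555). CLSTN3 was called higher in 4 of 17 alternatives. EHMT2 and NELFE, which flank the C2 and CFB pair, differed by 0.01 ± 0.11 (0.986) and -0.19 ± 0.16 (0.643), with levels of 5787 and 4887 in IFNg and 5775 and 5509 in control.

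**Figure D4:**
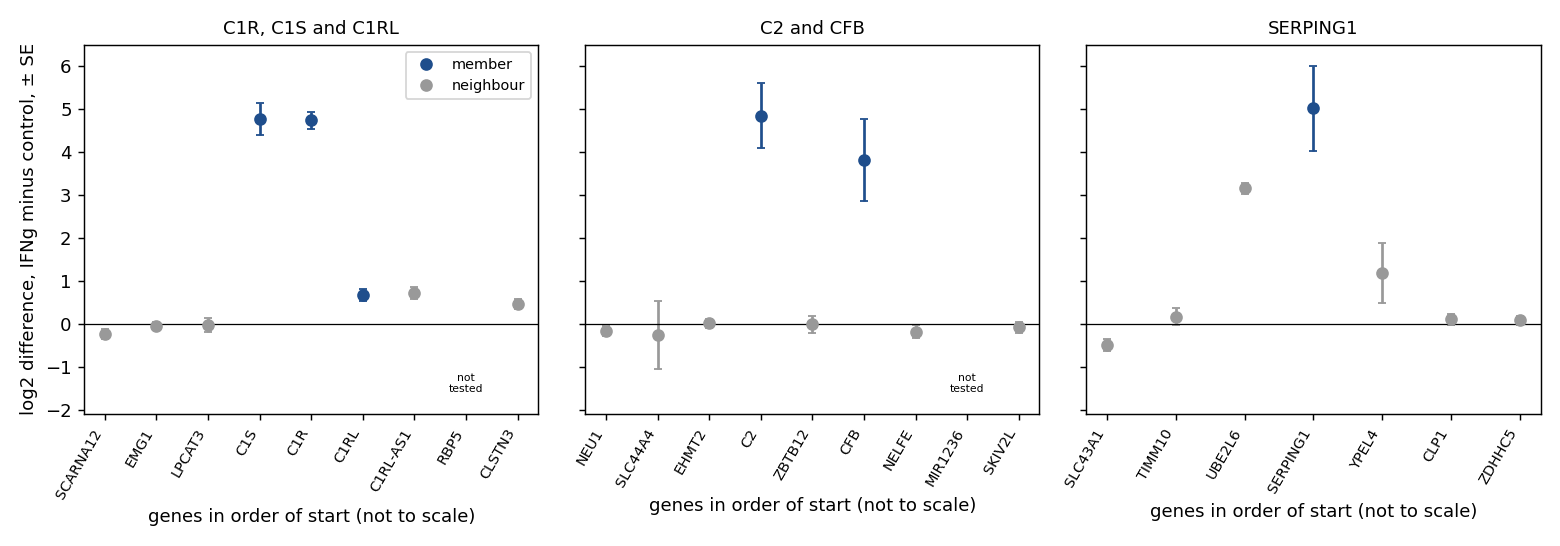
Log2 difference, IFNg minus control, with the SE of the limma fit (y axis) for the fluid-phase members (blue) and their 3 nearest tabulated genes on each side (grey), in the order of their starts and not to scale (x axis). C1S and C1R lie at 4.77 and 4.74 beside LPCAT3 at -0.03, C2 and CFB at 4.85 and 3.81 beside EHMT2 at 0.01, and UBE2L6 at 3.16 is the highest of the neighbours.

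Profiles over the 6 libraries were compared by the distance between centred log2 values, a description among 11701 genes with a mean of at least 100. The genes most like C1R were LOC100507463, named PSMB8-AS1 in RefSeq (distance 0.36), the invariant chain gene CD74 (0.43) and the peptide transporter gene TAP1 (0.46). C1S was closest to HAPLN3 (0.64), AIM2 (0.68) and OAS2 (0.73), and C1RL to EEF2K (0.17), PCED1A (0.19) and MTMR1 (0.21). For C2, CFB and SERPING1 the nearest profiles were distant: AIM2 for C2 (1.98), CD5L for CFB (1.48) and TMEM140 for SERPING1 (1.86). The means of CFB and SERPING1 lay under 100 in both groups, so genes at their level were not among those compared. CD46 was closest to ZNF638 (0.03), CD55 to AP1AR (0.07) and CD59 to SLC6A15 (0.06), genes with nearly flat profiles.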

How the data were processed

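The deposited table gives 1 value per gene and library for HT-1080 cells, 3 libraries with IFNg and 3 with PBS. Tools listed in the submitters' processing notes are TopHat2 2.0.13, Cuffdiff 2.2.1, Cufflinks and FastQC 0.11.3, with hg19 and GRCh37 as builds and no roles. How reads were counted, whether by strand, and how they were scaled is not given in the sources used here. Although named RPKM, the deposited signal consists of whole reads scaled by a size factor for each library: in all 6 libraries 100% of values were whole multiples of 1 step (tolerance 0.001 reads). No replicate was pooled. The members, gene lists and tests were chosen with earlier results of these data known.

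Genes were kept where 3 or more of the 6 libraries reached a value of 0.5 (15546 of 17187). limma 3.58.1 in R 4.3.3 was fitted to log2(value + 1) over all of them with an intensity trend and group as the only term, 2-sided, with Benjamini-Hochberg adjustment at 0.05. The pseudocount pulls the differences of low genes towards 0. Log2 differences compare means of log values and ratios compare means of the values themselves, without the pseudocount, so they can differ. For SERPING1, C2, CFB and, by less, C1S, the log2 difference stands for a larger fold than the ratio of means. edgeR 4.0.16 (quasi-likelihood test, TMM), which called 651 genes against 672 by limma, and DESeq2 1.42.0 were run on the recovered reads. Other alternatives were pseudocounts, filters, scalings, no trend, a replicate block and libraries left out. The fit was tested on simulated data, with the same dispersion for all genes and no library set apart. Changes were planted only in genes of a higher level than CFB and SERPING1, so that test does not cover genes as low. Named genes were all 9 members, every gene of a list that passed (of these, 1 complement gene and 1 response gene are not reported here but are in the counts) and up to 5 others with the highest mean value, and the 3 nearest profiles per member. In the text, some nearest profiles and neighbours are left out for brevity. An exact permutation test of 3 against 3 cannot go below 0.1, so none was run. Gene order and promoter letters came from RefSeq and exon lengths from GENCODE v29, both on GRCh38, and none was joined to coordinates of the deposited data.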

Additional observations from a re-analysis of the deposited data

How the results depend on the processing

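Over all genes limma called 672, but 320 without the trend, 1481 without both libraries numbered 3 and 386 to 1302 without 1 library each, while DESeq2 called 1059. The other complement genes called numbered 2, but 0 in limma without the trend (4 at an unadjusted p under 0.05; edgeR called 2 and DESeq2 3) and 1 to 2 without 1 library each. The GPI anchor genes called numbered 0, and 0 to 1 without 1 library each, PIGW being the 1 called without control 3. The neighbours called numbered 2, 1 of them C1RL-AS1, whose reads cannot be told apart from those of C1RL. The count was 1 without the trend, 4 without both libraries numbered 3, 4 with DESeq2 and 1 to 4 without 1 library each. The fluid-phase median stood 4.81 above that of the membrane regulators, 3.92 above it with a pseudocount of 5 and 4.29 to 4.91 above it without 1 library each. The cause of these changes was not tested. The pseudocount of 5 also lowered the SERPING1 difference to 3.39. Among the 17 alternatives, C1R and C1S were called in 17, C2 in 16, SERPING1 in 13, C1RL in 12 and CFB in 8. As the members were picked from this contrast, these counts only describe how calls vary with the setting and are no support for a difference. CD59 ranged from -0.16 to 0.03 and so had no stable direction. The other 8 members kept their sign.

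Whether the replicate numbers pair the libraries is not settled. Deviations from the group means correlated at 0.04, 0.02 and 0.11 for like numbers 1, 2 and 3, and at -0.07 to 0.03 for unlike numbers. Every unlike pair that held a library numbered 3 was negative, at -0.07 to -0.04. Deviations of a gene cancel out within a group, so values for unlike numbers are not independent of those for like numbers. With the replicate block limma called 1464 genes, 1 GPI anchor gene (PIGT, lower) and 5 neighbours. CFB and SERPING1 rest on few reads, which limits the precision of their ratios.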

Other observations

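C5AR1, the receptor for the C5a fragment, was singled out after its values were seen. It had 23.2, 59.9 and 2.32 normalised reads in IFNg, against 211, 143 and 133 in control. Every IFNg library lay below every control library, with 85 reads in all in IFNg and 505 in control. The log2 difference was -3.24 ± 0.85 and missed the threshold (limma adjusted p = 0.0582), while 6 of 17 alternatives called it lower (adjusted p over the alternatives 4.7e-04 to 0.309). CFI, which encodes the protease that CD46 assists, had 0, 21.7 and 23.2 in IFNg, against 0, 0 and 1.95 in control (2.51 ± 1.44, limma adjusted p = 0.462), and was also chosen after its values were seen.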
